A study of Mus musculus with 12 samples.

Results

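The antioxidant and glutathione genes are 40 genes taken by name: the superoxide dismutases, catalase and the glutathione peroxidases, the peroxiredoxins with sulfiredoxin, the thioredoxins and their reductases, the enzymes that make and recycle glutathione, a set of glutathione transferases, the quinone reductases and haem oxygenases, and the regulators Nfe2l2 and Keap1. Every probe whose accession belongs to such a symbol was taken, which gave 52 of the 39429 probes on the array. Probes were kept if some group of 3 arrays showed them well above background throughout, and each gene was represented by its probe with the highest mean signal. On that basis 39 of the 40 genes were among the 25028 genes tested. The missing gene is Gpx5, a glutathione peroxidase secreted by the epididymis, whose only probe failed the background test on each of the 12 arrays.

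The RNA came from testes of male C57BL/6J mice, divided into a Sertoli cell and a germ cell fraction, with 1 array per fraction and mouse. The knockout group held mouse 120 (4 months old) and mice 86 and 72 (8 months), all labelled as lacking TAp73, the Trp73 product with the transactivation domain. The control group held mouse 99 (5 months, titled WT) and mice 73 and 74 (8 months), whose titles read het although their source name calls them wildtype. Which part of Trp73 was removed, how the fractions were separated and how pure they were is not given in the sources used here. Each of 3 slides carried both fractions of 1 knockout and 1 control mouse, namely mice 120 and 99, mice 86 and 73, and mice 72 and 74, and the third slide was scanned on another day. Values below follow this mouse order within each group.

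Superoxide dismutases turn superoxide into hydrogen peroxide, which catalase, glutathione peroxidases and peroxiredoxins then reduce. The glutathione and thioredoxin systems supply the electrons through NADPH-dependent reductases, and the transcription factor NRF2, the product of Nfe2l2, drives many of these genes unless KEAP1 holds it back. In the testis, haploid germ cells make their own forms of several such proteins. The sperm nucleus and tail are built with extensive disulphide bonding and the sperm membrane is rich in lipids that oxidise easily.

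Levels are log2 of the processed signal relative to the 75th percentile of the same array, so that 0 is that percentile; levels of different probes are not compared. A gene was called when limma's adjusted p (Benjamini-Hochberg over all 25028 genes) was under 0.05. The 75th percentile ran from 1355 to 5350 signal units, and the control Sertoli array of mouse 74 was the lowest. The targeted gene ran against the labels. Its probe with the highest signal (A_52_P410636) read -1.91, -2.79 and -2.35 on knockout germ arrays, against -4.28, -3.10 and -2.68 on control germ arrays. On Sertoli arrays it read -2.91, -2.82 and -2.72 in knockout mice, against -3.56, -4.01 and -2.13 in control mice. A second probe (A_52_P193555) lay higher in knockout mice without overlap in both fractions. It read -2.76, -2.56 and -3.29 on knockout germ arrays, against -9.40, -3.63 and -4.15 on control germ arrays, and -2.04, -1.52 and -1.70 on knockout Sertoli arrays, against -9.42, -2.50 and -3.22 on control Sertoli arrays. On both arrays of mouse 99, the only control titled WT, that probe was not above background. None of the 3 Trp73 probes had a lower mean in knockout mice, none was called, and where the probes lie relative to the deletion is not known here, so knockout and control stand for the labels. The fraction names are labels too. All 6 smooth muscle-like peritubular (myoid) markers and all 6 fibroblast markers were called higher in Sertoli than in germ fractions of both genotypes. Of 17 tested Sertoli cell markers, 3 were called higher and 10 lower in knockout mice, and 5 higher and 9 lower in control mice. Their median log2 difference was -1.23 in knockout and -0.83 in control mice, and the highest 3.77 and 4.38. Fshr, the follicle-stimulating hormone receptor that defines Sertoli cells, was not above background on any of the 6 Sertoli arrays, and averaged -8.93 on knockout Sertoli and -2.64 on knockout germ arrays, and -8.66 on control Sertoli and -3.36 on control germ arrays. Fshr passed the filter only through the germ arrays where it is high, so its values are no support for a difference.

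The clearest contrast among the antioxidant genes was between the fractions. In knockout mice 23 of the 39 tested genes were called higher and 9 lower in Sertoli relative to germ fractions, where 37.9% of all genes were called higher and 37.1% lower, 75% in either direction. In control mice 24 were called higher and 9 lower, where 39.8% of all genes were called higher and 36.5% lower, 76.4% in either direction. The median log2 difference of the 39 genes was 1.25 in knockout and 1.42 in control mice, against 0.09 and 0.21 over all genes tested. The distance between these medians depends on the processing. Quantile normalization gave 1.08 against 0.41 in knockout and 1.48 against 0.44 in control mice. Normexp background correction gave 1.21 against 0.14 in knockout and 1.36 against 0.85 in control mice. Centring the arrays on their median gave 30 higher and 6 lower among the 39 genes in knockout mice, and moved the counts over all genes to 13071 higher and 7120 lower in knockout and 12768 and 7447 in control mice. In control mice normexp background correction moved the all-gene counts to 10398 higher and 5436 lower. With the scaling used throughout, 22 genes were called higher in the Sertoli fraction of both genotypes and 8 lower in both. The share of all genes called alike in both genotypes was not taken, so these 2 counts have no background beside them. The 8 include Gpx6, which passed the filter only through the germ arrays where it is high. Of the 22 and the 8 genes Sod1, and in control mice Gpx2, turned direction under another scaling or background correction, with values given below. In RNA from cell fractions, fewer cells of a type and less RNA per cell cannot be told apart. The fractions differ in their cells: summed levels of the 6 fibroblast markers, in multiples of the 75th percentile, were 254 to 394 on knockout Sertoli and 2.98 to 4.37 on knockout germ arrays, and 277 to 622 on control Sertoli and 1.69 to 2.72 on control germ arrays. Those of 8 elongating spermatid markers were 0.578 to 0.717 on knockout Sertoli and 480 to 589 on knockout germ arrays, and 0.901 to 3.58 on control Sertoli and 512 to 666 on control germ arrays. The part of these cell types in the differences below was not tested.

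**Figure D1:**
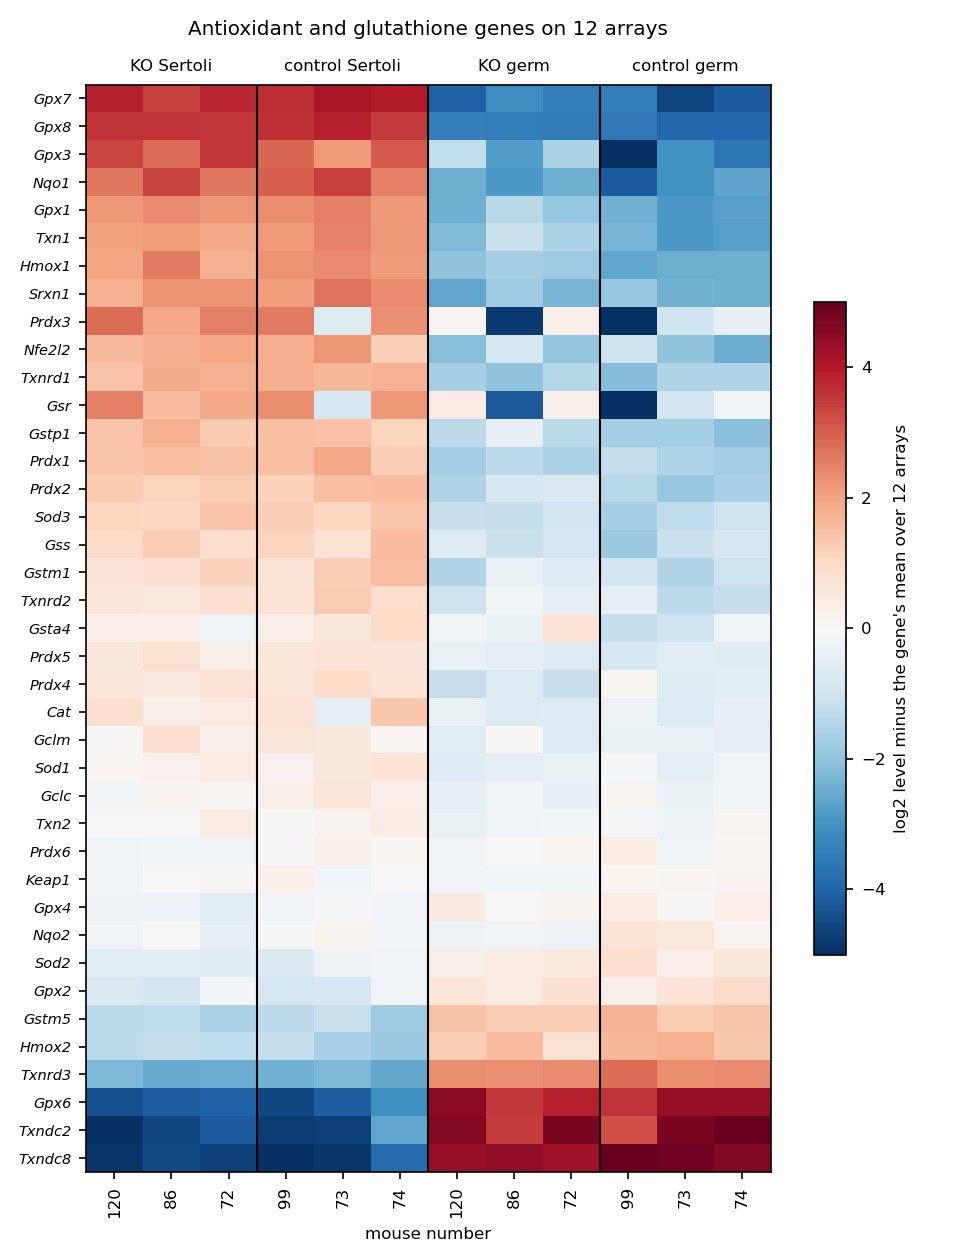
Level of the 39 tested antioxidant and glutathione genes on each of the 12 arrays, as log2 minus the gene's mean over the arrays, ordered by the Sertoli minus germ difference of control mice. Gpx7 stands at one end and Txndc8 at the other, and Gsr and Prdx3 are far below their group mates on the knockout germ array of mouse 86, the control germ array of mouse 99 and the control Sertoli array of mouse 73.

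Most of these genes differed between the fractions, as did 75% of all genes in knockout and 76.4% in control mice. NRF2 is known to act on several of them. Their promoters were therefore read for the core of the antioxidant response element, TGACNNNGC. They were also read for the cyclic AMP response element TGACGTCA, which CREM binds in spermatids. RefSeq windows of assembly GRCm38.p6, running from 250 bases before to 50 bases after a transcript's start, were found for 34 of the 40 genes. A gene with several windows counted as holding a motif when any of them did. The antioxidant core was present, on either strand, in 8 of these 34 genes, against 14.0% of all 27025 genes with a window. Of the genes called higher in the Sertoli fraction of both genotypes 6 of 20 held it (30%), namely Nfe2l2, Txnrd1, Prdx1, Gclm, Srxn1 and Sod1, of which Sod1 turned direction with quantile normalization. Of the genes called lower in both 2 of 8 held it (25%), namely Txndc2 and Gstm5. The 8 include Gpx6, which passed the filter only through the germ arrays where it is high. The cyclic AMP element was found in 0 of the 34 genes and in 2.03% of all genes, so it overlapped no antioxidant core here. A match is a description of these letters, not a binding site. The matches that lie before the start are printed here, read along the gene's own strand, with the matched core in capitals; GCNNNGTCA is the core read on the opposite strand. The match of Srxn1 lies past its start and is not shown.
Nfe2l2, chr2:75704859-75704913, minus strand: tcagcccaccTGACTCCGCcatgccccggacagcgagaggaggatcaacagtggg
Txnrd1, chr10:82859079-82859158, plus strand: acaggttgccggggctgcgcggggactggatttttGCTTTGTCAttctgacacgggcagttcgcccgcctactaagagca
Prdx1, chr4:116685431-116685510, plus strand: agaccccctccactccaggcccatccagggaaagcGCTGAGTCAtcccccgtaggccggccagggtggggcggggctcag
Gclm, chr3:122245388-122245467, plus strand: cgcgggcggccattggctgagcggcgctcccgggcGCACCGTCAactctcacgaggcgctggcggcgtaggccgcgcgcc
Sod1, chr16:90220671-90220750, plus strand: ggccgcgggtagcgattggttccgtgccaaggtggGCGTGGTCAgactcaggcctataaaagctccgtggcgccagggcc
Txndc2, chr17:65639915-65639994, minus strand: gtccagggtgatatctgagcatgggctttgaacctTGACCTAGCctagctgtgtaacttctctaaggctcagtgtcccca
Gstm5, chr3:107895777-107895853, plus strand: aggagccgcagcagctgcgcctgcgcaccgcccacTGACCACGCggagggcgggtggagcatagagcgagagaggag
The start meant here is that of the window with the match. Txnrd1 and Txndc2 also have windows at other starts, without a match. The core of Txnrd1 begins 92 bases before the start and that of Prdx1 133 bases before it. The core of Gclm begins 134, that of Sod1 56 and that of Nfe2l2 240 bases before the start. In the genes low in the Sertoli fraction it begins 203 bases before the start in Txndc2 and 42 in Gstm5.

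Among the superoxide dismutases, Sod3, the extracellular enzyme, was higher in the Sertoli fraction by 2.30 ± 0.20 (log2 difference ± SE) in knockout and by 2.55 ± 0.20 in control mice. Sod2, the mitochondrial enzyme, was lower there, at -0.97 ± 0.19 and -0.95 ± 0.19, and with median scaling stood at -0.12 and -0.28 without a call. Quantile normalization kept both calls and gave -1.51 in knockout mice. Sod1, the cytosolic enzyme, was called higher, at 0.73 ± 0.19 and 0.74 ± 0.19, but its direction depends on the scaling: after quantile normalization the differences were -0.12 and -0.15, and in the authors' deposited log2 table -0.12 and -0.16, none of them called.

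Of catalase and the 7 tested glutathione peroxidases, 5 were called higher in the Sertoli fraction of both genotypes, and 3 lower in knockout and 2 in control mice. The shares of all genes were 37.9% higher and 37.1% lower in knockout mice, and 39.8% and 36.5% in control mice. Gpx7, a peroxidase of the endoplasmic reticulum, read 2.15, 1.72 and 2.04 on knockout Sertoli arrays, against -5.74, -4.80 and -5.13 on knockout germ arrays. In control mice it read 1.98, 2.38 and 2.25 on Sertoli arrays, against -5.18, -6.31 and -5.87 on germ arrays. The fractions lay far apart in each mouse, with log2 differences of 7.20 ± 0.31 in knockout and 7.99 ± 0.31 in control mice (adjusted p 3.71e-09 and 1.58e-09). Gpx8, the other peroxidase anchored to that compartment, read 4.58, 4.56 and 4.49 on knockout Sertoli and -2.45, -2.49 and -2.52 on knockout germ arrays. On control arrays it read 4.60, 4.86 and 4.45 in the Sertoli and -2.61, -2.95 and -2.97 in the germ fraction. Its arrays lay close together within each group, and the differences were 7.03 ± 0.17 and 7.48 ± 0.17 (adjusted p 1.60e-10 and 1.22e-10).

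Gpx3, the secreted plasma peroxidase, read 3.05, 2.54 and 3.27 on knockout Sertoli arrays, against -1.49, -3.08 and -1.87 on knockout germ arrays. In control mice it read 2.60, 1.86 and 2.79 on Sertoli arrays, against -5.75, -3.28 and -3.86 on germ arrays. Its Sertoli arrays lay closer together than its germ arrays, the control germ array of mouse 99 being the lowest. The differences were 5.10 ± 0.60 in knockout and 6.71 ± 0.60 in control mice. Gpx1, the abundant cytosolic peroxidase, read 5.97, 6.18 and 6.02 on knockout Sertoli and 1.35, 2.43 and 1.87 on knockout germ arrays. In control mice its levels were 6.12, 6.34 and 5.99 on Sertoli and 1.39, 0.93 and 1.10 on germ arrays. Gpx1 was thus higher in the Sertoli fraction of every mouse, by 4.18 ± 0.26 in knockout and 5.01 ± 0.26 in control mice. Catalase (Cat) was higher by 1.06 ± 0.37 and 1.02 ± 0.37. Its call was lost without mouse 72, 86 or 120 (1.06, 1.09 and 1.02) in knockout mice. In control mice it was lost without mouse 72, 74 or 99 (1.02, 0.63 and 1.02). Mouse 72 is a knockout mouse, so without it only the spread shared by the groups and the adjustment changed. A dimmer second Cat probe gave 4.19 ± 1.34 and 3.33 ± 1.34. That probe was lowest of its group on the knockout germ array of mouse 86 (-8.18, not well above background). The same held for the control germ array of mouse 99 (-6.97) and the control Sertoli array of mouse 73 (-5.36).

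Gpx6 ran the other way. It read -0.32, -1.29 and -0.93 on knockout germ arrays and -1.23, -0.47 and -0.47 on control germ arrays, but on none of the 6 Sertoli arrays was it well above background. Its measured means there were -9.03 ± 0.18 in knockout and -8.75 ± 0.77 in control mice (SD, n = 3 each), so only a bound holds. Gpx6 passed the filter only through the germ arrays where it is high, so its place among the genes called lower is no support for a difference, and no p is given. Set against the lowest signal well above background, Gpx6 was at least 64.2-fold lower in Sertoli relative to germ fractions of knockout mice and at least 55.9-fold lower in control mice. Gpx2, best known from the gut, was lower, at -1.20 ± 0.28 and -1.26 ± 0.28; in control mice normexp correction turned it to 0.056, and in knockout mice the call was lost with each of the 4 other background or scaling choices. Gpx4, which repairs oxidised membrane lipids and becomes a structural protein of the sperm midpiece, was called lower in knockout mice (-0.59 ± 0.18) and stood at -0.39 ± 0.18 in control mice (adjusted p 0.0642). The Gpx4 call was lost without mouse 72 (-0.53) or mouse 120 (-0.51), and median scaling gave 0.26, without a call. Quantile normalization kept the call and gave -1.37.

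Of the 7 peroxiredoxin and sulfiredoxin genes 6 were called higher in the Sertoli fraction of knockout mice and 5 in that of control mice, and none lower with the probe tested. Over all genes 37.9% were called higher and 37.1% lower in knockout mice, and 39.8% and 36.5% in control mice. Srxn1, the sulfiredoxin that reactivates overoxidised peroxiredoxins, was higher by 4.33 ± 0.26 in knockout and 4.62 ± 0.26 in control mice. Prdx1 and Prdx2, the cytosolic peroxiredoxins, were higher by 3.00 ± 0.22 and 2.24 ± 0.23 in knockout and by 3.06 ± 0.22 and 3.04 ± 0.23 in control mice. Prdx5 was higher by 1.05 ± 0.18 and 1.31 ± 0.18, and Prdx4, the form of the secretory pathway, by 1.60 ± 0.22 and 1.08 ± 0.22. Prdx6, which also has phospholipase activity, was called in neither genotype with the probe tested (-0.14 ± 0.19 and -0.01 ± 0.19). Its 4 probes disagreed: in control mice they gave -2.90, -1.47, -0.01 and 1.24, so no direction is given for Prdx6. The 1.24 came from a dim probe that read between -8.61 and -5.90. It was not well above background on the knockout germ array of mouse 120 and on both arrays of mouse 74. The other Prdx6 probes were well above background on every array.

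Of the 7 thioredoxin and reductase genes 3 were called higher and 3 lower in the Sertoli fraction of both genotypes. Among all genes 37.9% were called higher and 37.1% lower in knockout mice, and 39.8% and 36.5% in control mice. Txn1, the cytosolic thioredoxin, was higher in the Sertoli fraction by 3.62 ± 0.27 in knockout and 4.91 ± 0.27 in control mice, and its reductase Txnrd1 by 3.38 ± 0.23 and 3.45 ± 0.23. The mitochondrial reductase Txnrd2 was higher by 1.25 ± 0.28 and 1.93 ± 0.28, whereas Txn2, the mitochondrial thioredoxin, was not called (0.37 ± 0.18 and 0.30 ± 0.18). Txndc8 and Txndc2 encode thioredoxins of the sperm. Txndc8 read -6.55, -6.18 and -6.38 on knockout Sertoli and 2.66, 2.74 and 2.51 on knockout germ arrays. In control mice it read -6.75, -6.55 and -5.54 on Sertoli and 3.51, 3.15 and 2.94 on germ arrays. The fractions did not come near each other, and the differences were -9.01 ± 0.29 and -9.48 ± 0.29 (adjusted p 5.57e-10 and 3.68e-10). Txndc2 read -6.51, -5.97 and -5.57 on knockout Sertoli and 3.18, 2.07 and 3.28 on knockout germ arrays. In control mice its levels were -6.18, -6.10 and -4.03 on Sertoli and 1.80, 3.27 and 3.71 on germ arrays, with mouse 74 the highest in both. The differences were -8.86 ± 0.64 and -8.36 ± 0.64. Txnrd3, the thioredoxin and glutathione reductase abundant in testis, read 0.27, -0.03 and 0.01 on knockout Sertoli and 4.81, 4.81 and 4.86 on knockout germ arrays. On control arrays it read 0.11, 0.26 and -0.05 in the Sertoli and 5.31, 4.82 and 4.87 in the germ fraction. The fractions lay apart in every mouse, and the differences were -4.74 ± 0.18 and -4.89 ± 0.18.

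**Figure D2:**
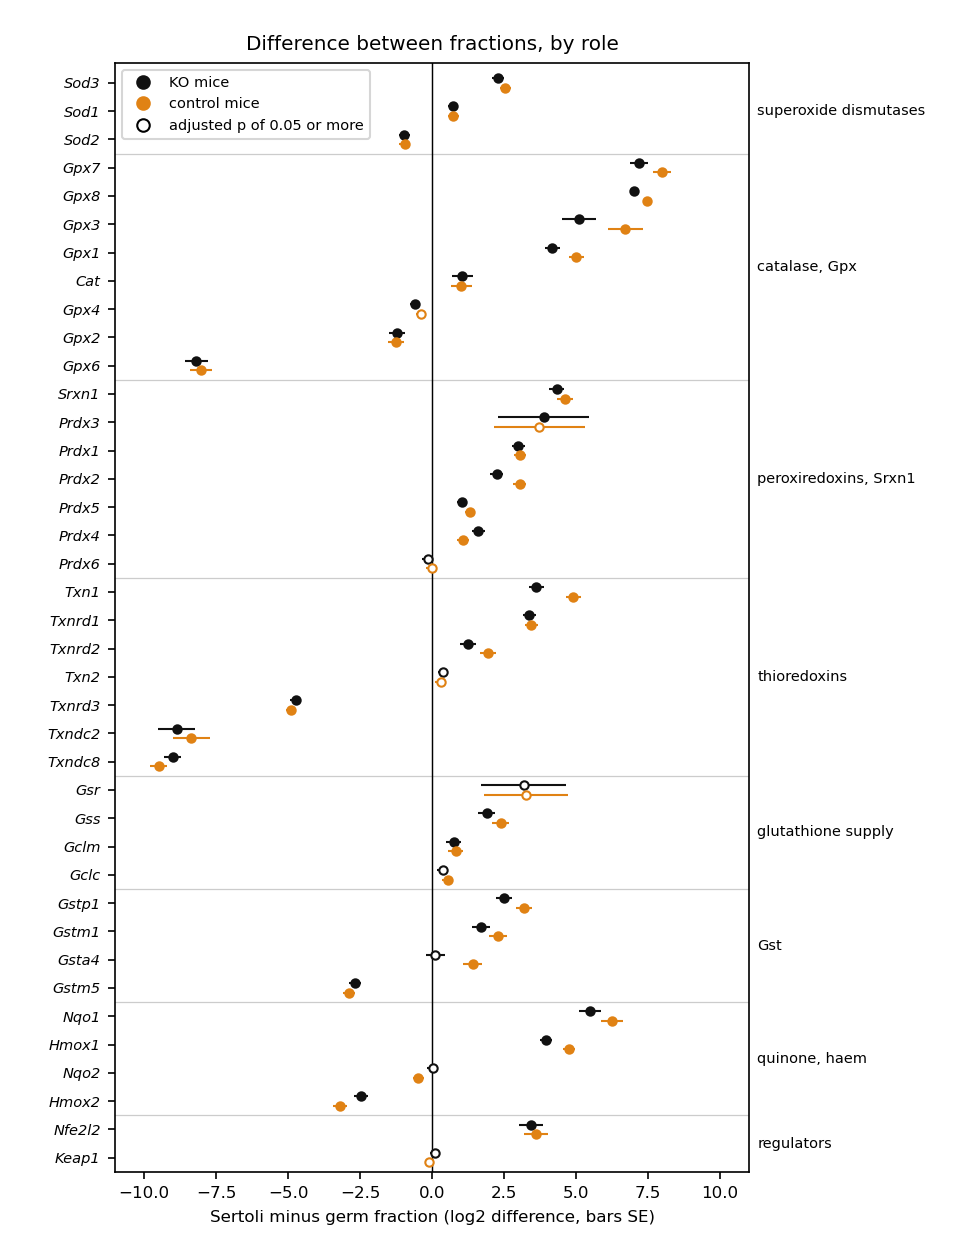
Sertoli minus germ log2 difference of each tested gene, grouped by role, in knockout mice (black) and control mice (orange), with bars of 1 SE and open symbols for an adjusted p of 0.05 or more. The catalase and Gpx panel spans from Gpx7 at 7.20 in knockout and 7.99 in control mice to Gpx6 at the negative end, and the thioredoxin panel ends with Txndc8 at -9.01 and -9.48.

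Of the 4 genes of glutathione supply, Gss, the enzyme that completes glutathione, was higher in the Sertoli fraction by 1.90 ± 0.29 in knockout and 2.39 ± 0.29 in control mice. Gclm, the modifier subunit of glutamate-cysteine ligase, which catalyses the limiting step, was higher by 0.76 ± 0.26 and 0.82 ± 0.26. Gclc, the catalytic subunit, was called in control mice (0.54 ± 0.19) and stood at 0.38 ± 0.19 in knockout mice (adjusted p 0.0933). Leaving out single mice ended these calls: the Gclm call was lost without mouse 72 in knockout mice (0.68) and without mouse 73 or 99 in control mice (0.76 each), and the Gclc call without mouse 73 (0.35) or 74 (0.54). Among the glutathione transferases, Gstp1 was higher by 2.51 ± 0.27 and 3.19 ± 0.27 and Gstm1 by 1.70 ± 0.32 and 2.29 ± 0.32. Gstm5, a mu-class enzyme, was lower, at -2.69 ± 0.21 and -2.88 ± 0.21. Transferases of the mu class are close in sequence, and whether the probes also bind a relative was not tested. Gsta4, which conjugates the lipid peroxidation product hydroxynonenal, was called higher in control mice (1.42 ± 0.33) and stood at 0.11 ± 0.33 in knockout mice (adjusted p 0.770).

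Nqo1, a quinone reductase and classical NRF2 target, read 0.04, 0.75 and 0.04 on knockout Sertoli and -5.06, -5.50 and -5.06 on knockout germ arrays. In control mice it read 0.37, 0.83 and -0.08 on Sertoli and -6.76, -5.64 and -5.24 on germ arrays. It was higher in the Sertoli fraction of each mouse, with differences of 5.48 ± 0.39 and 6.25 ± 0.39. The haem oxygenases, which break down haem, differed in opposite directions. The inducible form, Hmox1, was higher by 3.95 ± 0.21 and 4.74 ± 0.21. The constitutive form, Hmox2, read 2.0, 2.11 and 2.05 on knockout Sertoli and 4.56, 4.92 and 4.08 on knockout germ arrays. In control mice Hmox2 read 2.11, 1.71 and 1.46 on Sertoli and 4.99, 5.11 and 4.72 on germ arrays. It was lower in the Sertoli fraction of every mouse, at -2.46 ± 0.24 and -3.18 ± 0.24. Nqo2, the second quinone reductase, was called lower in control mice at -0.48 ± 0.20 (adjusted p 0.0456) and stood at 0.02 ± 0.20 in knockout mice. That call was lost without mouse 72, 86 or 120 (-0.48 each). These are knockout mice, so without them only the spread shared by the groups and the adjustment changed. The Nqo2 call was also lost without mouse 73 (-0.54) and without mouse 99 (-0.32), and with each mouse as a fixed block (adjusted p 0.0584). Median scaling gave 0.20, and over the 21 alternatives for Nqo2 the adjusted p ran from 0.00721 to 0.597. Nfe2l2 itself was higher by 3.44 ± 0.42 and 3.60 ± 0.42, and Keap1 was not called (0.10 ± 0.16 and -0.10 ± 0.16).

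The question of the study's design was whether knockout mice differ from control mice within a fraction. In the germ fraction none of the 39 genes was called, where 0.216% of all genes were called higher, 0.004% lower and 0.22% in either direction. The all-gene count of 54 called higher became 2 without mouse 72, 73 or 86, 3 without mouse 99, 29 without mouse 74, 129 without mouse 120 and 3 after normexp correction. At an unadjusted p under 0.05, 7 antioxidant genes were higher and 2 lower, against 1529 higher and 308 lower among all 25028 genes. The median log2 difference of the 39 genes was 0.02, against -0.04 over all genes, and the 95% interval stayed within 2-fold either way for 20 of them. Over all 25028 genes it stayed within 2-fold for 13808. In 9 of the 39 genes the 3 knockout germ arrays did not overlap the 3 control germ arrays, 5 above (Gpx3, Gpx8, Txn1, Hmox1 and Gstp1) and 4 below (Prdx4, Txndc8, Nqo2 and Keap1), while this held for 15.7% of all genes, 6.58% above and 9.16% below.

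Txn1 had the smallest p. It read 0.49, 1.58 and 1.11 on knockout germ arrays, against 0.37, -0.18 and -0.06 on control germ arrays. The lowest knockout array was just above the highest control array, both from the first slide. The log2 difference was 1.02 ± 0.27 (95% interval 0.43 to 1.61, adjusted p 0.220), and within the 3 slides it was 0.12, 1.76 and 1.17. Gpx3, with the germ levels given above, averaged -2.15 ± 0.83 in knockout and -4.30 ± 1.29 in control germ fractions (SD, n = 3 each). Its difference of 2.15 ± 0.60 (adjusted p 0.260) was 4.26, 0.20 and 2.0 within the slides, and 1.42 without mouse 99; over its alternatives it ran from 1.10 to 3.60. Nqo2 was the lowest relative to control mice, reading 1.36, 1.44 and 1.33 on knockout germ arrays, against 2.31, 2.15 and 1.76 on control germ arrays. The groups did not overlap, and the knockout arrays were close together. The Nqo2 difference was -0.70 ± 0.20 (adjusted p 0.266), within the slides -0.96, -0.71 and -0.42, and a second, dimmer Nqo2 probe gave -0.51 ± 0.25. Over the 20 alternatives the adjusted p ran from 0.0859 to 0.929 for Txn1, from 0.163 to 0.99988 for Gpx3 and from 0.133 to 0.941 for Nqo2.

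Of the other genes with an unadjusted p under 0.05 in the germ fraction, Hmox1 stood at 0.65 ± 0.21, Gstp1 at 0.82 ± 0.27, Gpx1 at 0.74 ± 0.26, Prdx2 at 0.63 ± 0.23 and Gsta4 at 0.86 ± 0.33. Prdx4 stood at -0.65 ± 0.22. Their adjusted p ran from 0.355 for Hmox1 to 0.529 for Gsta4. The second Gstp1 probe gave 0.86 ± 0.18 (adjusted p 0.116 over all probes) and the dimmer Gstm1 probe 1.31 ± 0.35, against 0.33 ± 0.32 with the Gstm1 probe tested. Markers of other cells were read on the same arrays. The median log2 difference was 1.35 for 6 Leydig cell markers, 0.91 for 10 macrophage markers and 0.87 for 6 fibroblast markers. It was 0.63 for 6 myoid markers, 0.51 for 17 Sertoli cell markers and 0.32 for 6 endothelial markers. For 3 erythroid markers it was -0.10, and the 1 epididymis marker tested stood at -0.21. Of all these markers Pdgfra, a fibroblast marker, was called. Summed levels of the Leydig markers were 7.18 to 13.1 on knockout and 2.52 to 6.41 on control germ arrays, and those of the macrophage markers 2.32 to 4.04 and 1.96 to 1.98. Summed fibroblast levels are given above, and Sertoli marker sums were 125 to 195 on knockout and 103 to 130 on control germ arrays. The myoid sums overlapped, at 21.2 to 22.3 on knockout and 20.8 to 24.5 on control germ arrays. In addition, 1 myoid marker was lower at an unadjusted p under 0.05. The endothelial sums overlapped too, at 3.08 to 3.67 on knockout and 2.78 to 3.64 on control germ arrays. The erythroid sums did not, at 1.13 to 1.33 on knockout and 0.906 to 0.991 on control germ arrays. Germ cell markers had medians below 0 on the same arrays, with 8 genes a list and none called. The median was -0.18 for spermatogonia, -0.14 for spermatocytes, -0.31 for round spermatids and -0.16 for elongating spermatids. Summed round spermatid levels were 66.8 to 77.6 on knockout and 84.6 to 99.6 on control germ arrays, and the other germ cell sums overlapped. What these cell types contribute to the antioxidant genes' values was not tested.

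**Figure D3:**
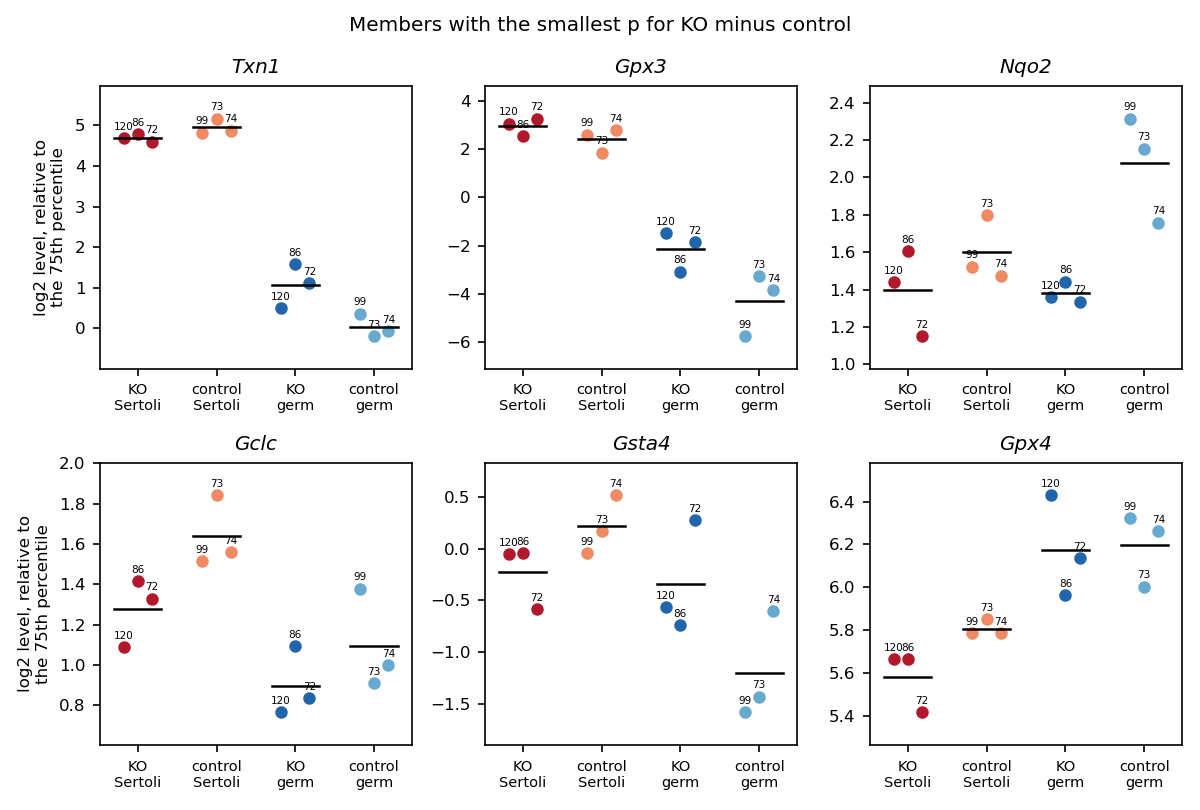
Level (log2, relative to the 75th percentile) on every array of the 3 genes with the smallest p for knockout minus control in the germ fraction (Txn1, Gpx3, Nqo2) and in the Sertoli fraction (Gclc, Gsta4, Gpx4), with mouse numbers and a bar at each group mean. In the germ fraction Txn1 and Gpx3 lie higher and Nqo2 lower on all 3 knockout arrays than on the control arrays, with adjusted p of 0.220, 0.260 and 0.266.

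In the Sertoli fraction none of the 39 genes was called either, and 0% of all genes were (161 higher and 595 lower at an unadjusted p under 0.05). None of the 39 had an unadjusted p under 0.05. The median difference was -0.10 for the 39 genes and -0.10 for all genes. The 95% interval stayed within 2-fold either way for 33 of the 39, and for 14756 of all 25028 genes. The knockout Sertoli arrays lay below the control arrays without overlap for Gclc, Gsta4, Gpx4, Prdx6 and Txn1, 5 of 39 genes, and above for 0, while 6.72% of all genes did not overlap, 1.87% above and 4.86% below. For Prdx6 this holds for the probe tested (-0.23), whereas its other 3 probes gave 0.25, 0.09 and 0.05. Gclc read 1.09, 1.41 and 1.33 in knockout Sertoli fractions, against 1.52, 1.84 and 1.56 in control ones. The groups were separated by a narrow gap, and the difference was -0.36 ± 0.19 (95% interval -0.78 to 0.06). Within slides it was -0.43, -0.43 and -0.23. Gsta4 read -0.05, -0.05 and -0.59 in knockout, against -0.05, 0.17 and 0.52 in control Sertoli fractions, and its difference was -0.44 ± 0.33. Both mice of the first slide had almost the same Gsta4 level, and the within-slide differences were -0.01, -0.22 and -1.10. Gpx4 read 5.66, 5.66 and 5.42 in knockout, against 5.79, 5.85 and 5.79 in control Sertoli fractions. Its difference was -0.23 ± 0.18, and it turned to 0.012 with quantile normalization and to 0.015 in the authors' deposited table. The adjusted p of these 3 genes was 0.9997, and over the alternatives it was at least 0.514. For the sperm thioredoxin Txndc2 the difference in the Sertoli fraction was -0.58 ± 0.64, where 6 of 8 elongating spermatid markers had an unadjusted p under 0.05 and a lower level in knockout mice, without a call. Within slides the Txndc2 difference was -0.33, 0.13 and -1.55. The control Sertoli array of mouse 74 stood apart, with 808 genes, Txndc2 among them, more than 2 log2 units above both group mates. Its summed elongating spermatid level was 3.58, against 0.901 and 1.24 on the control Sertoli arrays of mice 99 and 73.

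**Figure D4:**
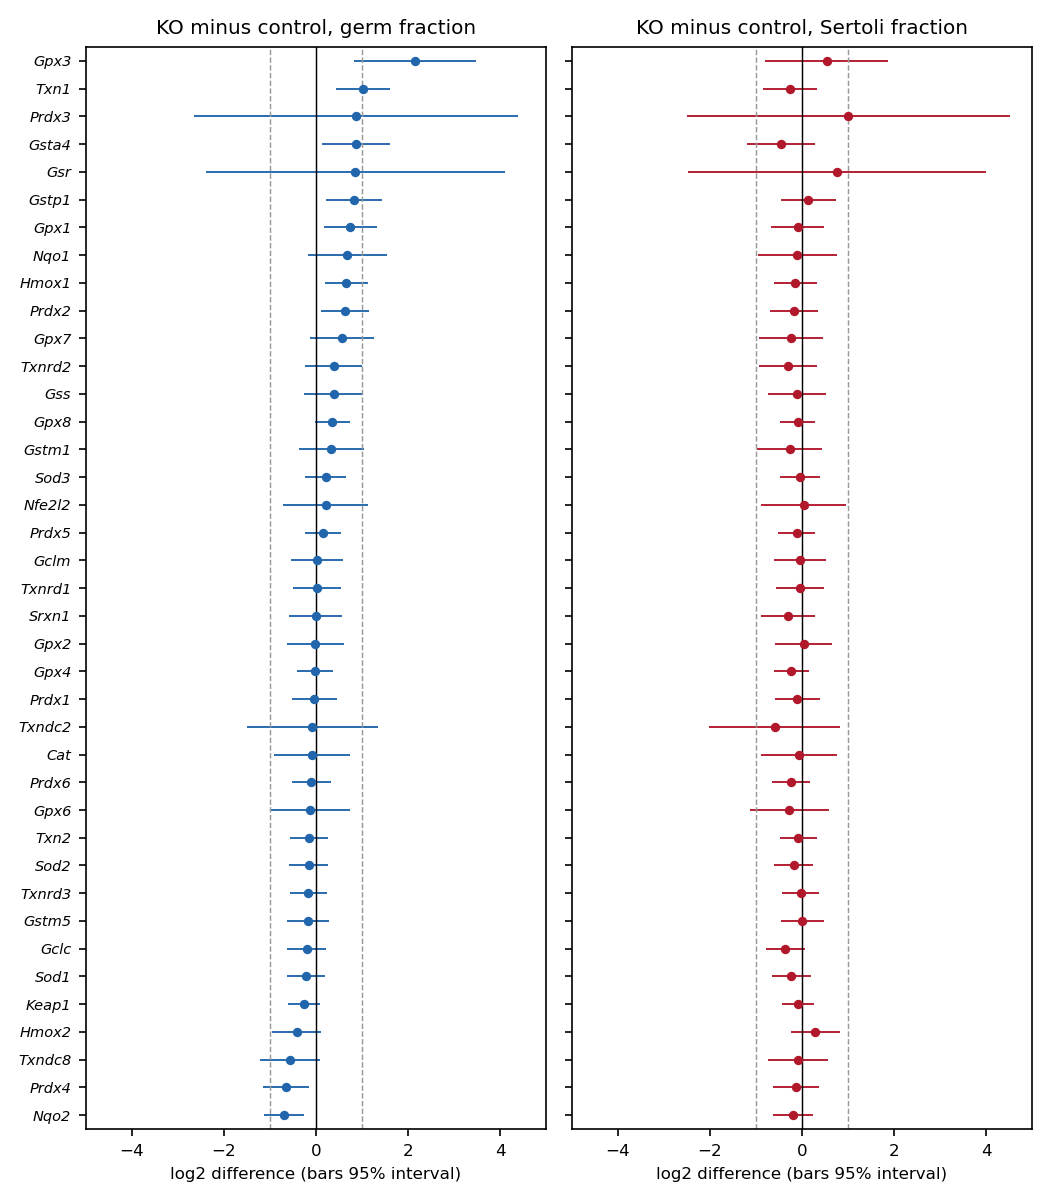
Knockout minus control log2 difference of each tested gene in the germ fraction (left) and the Sertoli fraction (right), with 95% intervals from the fit and dashed lines at 2-fold either way. The order is that of the germ fraction, from Gpx3 at 2.15 to Nqo2 at -0.70, and the intervals of Gsr and Prdx3 are by far the widest.

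The difference between the knockout effects of the fractions (Sertoli minus germ) was called for none of the 39 genes, where 0.00799% of all genes were called. At an unadjusted p under 0.05 it was below 0 for 5 genes and above 0 for none, where over all 25028 genes it was below 0 for 1023 and above 0 for 122. Txn1 had the smallest p, with -1.28 ± 0.38 (adjusted p 0.742), from a knockout minus control difference of -0.26 ± 0.27 in the Sertoli and 1.02 ± 0.27 in the germ fraction. For Gsta4 the value was -1.31 ± 0.47 (adjusted p 0.951). Its germ levels were -0.56, -0.74 and 0.28 in knockout and -1.58, -1.43 and -0.60 in control mice, the highest control array lying among the knockout ones. Hmox1 gave -0.80 ± 0.30 (adjusted p 0.951). It read 3.56, 4.14 and 3.36 in knockout, against 3.81, 3.94 and 3.73 in control Sertoli fractions, and -0.44, -0.11 and -0.22 in knockout, against -1.02, -0.86 and -0.86 in control germ fractions. The Hmox1 arrays overlapped in the Sertoli and not in the germ fraction. Prdx2 and Gpx1 were the other 2 genes, at -0.80 ± 0.33 and -0.83 ± 0.36.

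Gsr, the reductase that regenerates glutathione, and Prdx3, the mitochondrial peroxiredoxin, varied most between mice of a group. Gsr read 2.41, 1.43 and 1.78 on knockout Sertoli and 0.29, -4.33 and 0.13 on knockout germ arrays. In control mice it read 2.22, -0.94 and 2.05 on Sertoli and -5.12, -1.06 and -0.30 on germ arrays. Prdx3 followed the same arrays, with 2.40, 1.47 and 2.13 on knockout Sertoli and -0.31, -5.18 and -0.12 on knockout germ arrays. On control arrays it read 2.21, -1.10 and 1.86 in the Sertoli and -6.04, -1.39 and -0.80 in the germ fraction. Both genes were thus low on the knockout germ array of mouse 86, the control germ array of mouse 99 and the control Sertoli array of mouse 73, by 2.97 to 4.86 below the nearer group mate. Other genes were low there as well: 478, 382 and 174 of the 25028 genes lay more than 2 log2 units below both group mates on those 3 arrays, against 2 to 54 on the other 9. The second Gsr probe showed the same 3 arrays, at -7.40, -9.26 and -2.87. The Sertoli minus germ difference of Gsr was 3.18 ± 1.47 in knockout and 3.27 ± 1.47 in control mice, not called (adjusted p 0.0703 and 0.0624). That of Prdx3 was called in knockout mice (3.87 ± 1.59, adjusted p 0.0455) and not in control mice (3.73 ± 1.59, adjusted p 0.0516). The knockout call of Prdx3 was lost without mouse 72 (4.68), mouse 86 (2.48) or mouse 120 (4.45). Without the 3 low arrays it was 2.22 and called, an alternative chosen after seeing the data, and over its 21 alternatives the adjusted p ran from 0.000380 to 0.209.

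**Figure D5:**
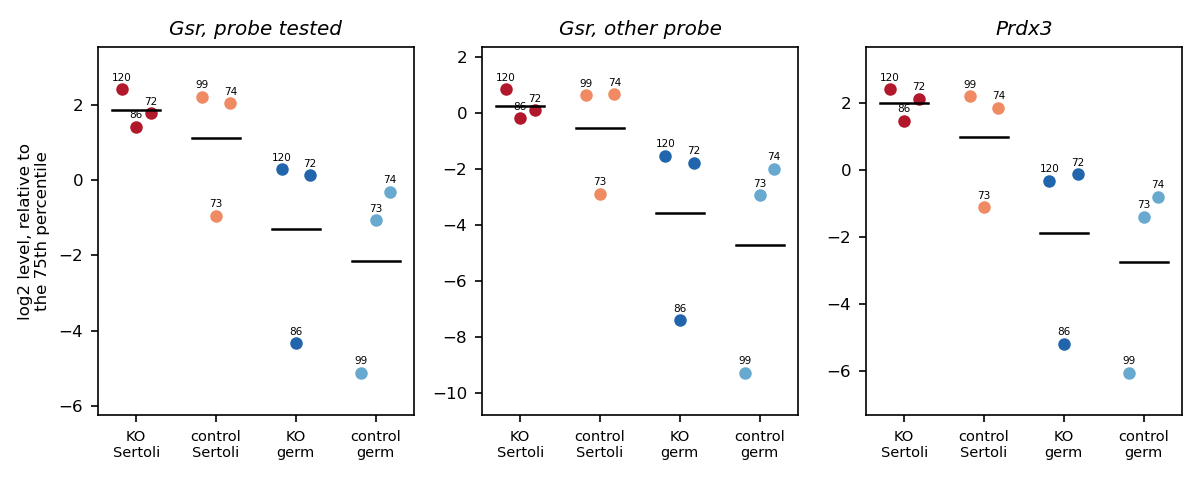
Level (log2, relative to the 75th percentile) of both Gsr probes and of Prdx3 on every array, with mouse numbers and a bar at each group mean. The same 3 arrays are low in each panel: the knockout germ array of mouse 86, the control germ array of mouse 99 and the control Sertoli array of mouse 73.

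A wider list of 58 genes of glutathione transfer, NADPH supply, iron storage and NRF2 control, was written for comparison. Of 57 tested, 40 were called higher and 9 lower in Sertoli relative to germ fractions of knockout mice, 86.0% in either direction. Over all genes 37.9% were called higher and 37.1% lower there, 75% in either direction. In control mice 40 were called higher and 10 lower (87.7%), where 39.8% of all genes were called higher and 36.5% lower (76.4%). The median differences were 1.90 and 2.45, against 0.09 and 0.21 over all genes. Gsto1, an omega-class transferase, was higher by 5.41 ± 0.21 in knockout and 5.99 ± 0.21 in control mice. Slc7a11, the cystine importer that feeds glutathione synthesis, averaged -2.97 ± 0.31 on knockout Sertoli arrays, against -7.89 ± 1.36 on knockout germ arrays (SD, n = 3 each), of which only 1 was well above background, so no fold is given. In control mice no germ array was, and the level was at least 12.1-fold higher in the Sertoli fraction. Ggt5, a gamma-glutamyltransferase family member, averaged -2.03 ± 0.29 on knockout Sertoli arrays, against -7.03 ± 1.18 on knockout germ arrays, of which 2 of 3 were well above background. In control mice none was, and Ggt5 was at least 30.0-fold higher. Slc7a11 and Ggt5 passed the filter only through the Sertoli arrays where they are high. Their place among the genes called higher is therefore no support for a difference. Gsto2 was the most strongly lower gene of this list, at -6.86 ± 0.28 and -7.07 ± 0.28. Next came Gstm7 (-2.53 ± 0.43) and Gstm6 (-2.22 ± 0.28) in knockout mice and Cul3 (-1.91 ± 0.31), the ubiquitin ligase scaffold that works with KEAP1, and Gstm7 (-1.85 ± 0.43) in control mice. Between knockout and control mice 0 of the 57 were called in either fraction. In the germ fraction 44 of 57 stood above 0, with a median of 0.32, and 16 higher and 2 lower had an unadjusted p under 0.05. Over all 25028 genes 11384 stood above 0, and 1529 higher and 308 lower had such a p. The smallest p belonged to Gstm2 (0.82 ± 0.22, adjusted p 0.240), Gstt1 (0.81 ± 0.23) and Gstm3 (1.19 ± 0.37). In the Sertoli fraction the median was -0.05, and Ggt1 (0.58 ± 0.28), Msrb1 (-0.43 ± 0.23) and Ftl1 (-0.57 ± 0.34) had the smallest p, each with an adjusted p of 0.9997. For the difference between the knockout effects of the fractions, 7 of the 57 had an unadjusted p under 0.05, all below 0 (1023 below and 122 above over all genes), and 0 were called. Gstm2 came first, at -1.15 ± 0.31 (adjusted p 0.630), then Taldo1 (-0.99 ± 0.31), a transaldolase of the pentose phosphate pathway, and Msrb1 (-0.95 ± 0.33), a methionine sulphoxide reductase.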

How the data were processed

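Per the file headers, the authors' scanner files hold the processed intensity of each spot on 1-colour Agilent mouse arrays, background-subtracted by Agilent Feature Extraction 10.7.3.1. The labels' protocol names Cy3, while the label field reads biotin. The authors also deposited a table of normalized log2 values, every column with a median of 8.29 and in the order of the processed signal; its normalization is not stated, though the submitters' processing notes name limma. Here control spots (1377 of 44397 per array) were left out, spots of a probe averaged, and log2 of the processed signal was taken relative to each array's 75th percentile. Of 39429 probes, 30531 passed the background filter. RefSeq's table for GRCm38.p6 named 26055 probes by accession, and 13374 stayed unnamed. Promoters are from the same RefSeq assembly; the array design uses mm9, so no array coordinates are given.

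limma 3.58.1 (R 4.3.3) fitted the 4 groups of 3 arrays in 1 model over all genes, tested on simulated data. Intervals are 95% from that model, and the number of mice limits the precision. Arrays of the same mouse share an animal: their deviations from the group means correlated at -0.16 to 0.46 (consensus 0.13), and mouse as a block was an alternative. Slides each held both genotypes. Normexp used the median signal and local background, since no mean signal was present. All 40 genes could be named; values on each array were given for the 5 genes highest and the 5 lowest in the Sertoli fraction of control mice and for the 3 with the smallest p in each knockout comparison, and 3 genes a direction or of smallest p from the wider list. Values on each array of Gsr, Prdx3 and Trp73 were added, the first pair after their spread was seen. The genes, lists and tests were chosen with earlier results of these data known.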

Additional observations from a re-analysis of the deposited data

How the results depend on the processing

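With 3 mice a group, none of the 39 genes was called between knockout and control mice in either fraction, or for the difference between the knockout effects of the fractions, under any alternative run. Over all alternatives 20 to 30 genes were called higher and 6 to 10 lower in the Sertoli fraction of knockout mice, and 22 to 27 and 7 to 10 in control mice. With the scaling used throughout, 37.9% of all genes were called higher and 37.1% lower in knockout mice, and 39.8% and 36.5% in control mice. The all-gene counts also moved with the processing, as given above. Of 74 single-gene results, 58 kept their direction and their side of the threshold throughout. Over their alternatives 49 values lost the call and 9 turned direction. With quantile normalization Sod1 turned to -0.12 in knockout and -0.15 in control mice and Gpx4, knockout minus control in the Sertoli fraction, to 0.012; the authors' deposited table gave -0.12, -0.16 and 0.015. Median scaling turned Gpx4 in knockout mice to 0.26 and Nqo2 in control mice to 0.20, and normexp turned Gpx2 in control mice to 0.056. These scalings moved the median Sertoli minus germ difference of all genes by 0.32 (quantile) and 0.85 (median) in knockout mice and by 0.23, 0.67 and, with normexp, 0.64 in control mice; the cause of single turns was not tested. With mouse as a random replicate block 23 genes were higher and 9 lower in knockout and 26 and 9 in control mice; as a fixed block 25 and 8 in control mice. The fixed block ended the Nqo2 call (adjusted p 0.0584) and no other single-gene call. The within-slide differences are single values with no test.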
